A study of Mus musculus with 6 samples.

Results

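Chemokine-high microglia are microglial cells in which the genes of the CC chemokines CCL3 and CCL4 take up a large part of the captured RNA. A barcode, the tag of 1 captured cell, was counted as microglial when it had at least 400 detected genes, under 10% mitochondrial UMIs (unique molecular identifiers, each marking 1 captured transcript) and at least 3 UMIs summed over P2ry12, Tmem119, Siglech, Sall1, Gpr34, Fcrls, Olfml3 and Slc2a5. It was called chemokine-high when Ccl3 and Ccl4 together made up at least 0.5% of its UMIs. Of 6000 deposited barcodes in 6 libraries, 2083 passed the gene and mitochondrial limits, 1254 of these were microglial, and 659 were chemokine-high. The other 595 microglial barcodes, below the limit, were the comparison within each library. The members were chosen by their Ccl3 and Ccl4 UMIs, so the levels of these genes are given as a description and were not tested.

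CCL3 and CCL4, known as macrophage inflammatory proteins, are secreted proteins that attract monocytes, T cells and NK cells. In macrophages and microglia their genes are induced by signals that reach NF-kB, a family of transcription factors held in the cytosol by inhibitors such as the product of Nfkbia. Both genes are also known to be induced, together with immediate-early genes, while microglia are isolated from brain by enzymes. All 6 suspensions were made with a papain-based digestion, and the part of that step in the results was not tested.

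The cells came from perfused brains of female C57BL/6 mice aged 2 to 3 months, enriched on a Percoll gradient and then with magnetic beads for Cd11b, a surface protein of myeloid and NK cells, and were captured by Drop-seq, which counts transcript 3′ ends in droplets. Naive mice had no metastases and gave 2 libraries, from 1 brain each. Metastasis-bearing unmodified mice gave 2 libraries from 1 brain each, taken 2 to 3 weeks after cells of the mouse mammary carcinoma line E0771 had been injected into the heart. Metastasis-bearing Cx3cr1+/- and Cx3cr1-/- mice, here Cx3cr1-het and Cx3cr1-null, gave 1 library each from 2 pooled brains. Cx3cr1 encodes the fractalkine receptor of microglia, and nothing in the labels says how the allele was altered. Replicate 1 of the naive and metastasis groups was sequenced on a HiSeq 2500 and the 4 remaining libraries on a NextSeq 500, so sequencer and replicate number cannot be told apart. Groups follow the sample labels. The file names of the 4 libraries from unmodified mice carry the reverse group, and going by them would turn the sign of every metastasis minus naive value below and change no comparison made within a library. Summed over 9 genes, carcinoma markers had 248 and 530 UMIs in chemokine-high and other microglia of metastasis 1 against 19 and 17 in naive 1, but 0 and 0 in metastasis 2 against 5 and 17 in naive 2. They were thus higher under the metastasis label in replicate 1 and at 0 under it in replicate 2. The replicate 2 counts differ in depth, with 84182 and 91648 UMIs of all genes in these classes of metastasis 2. Naive 2 had 346596 and 365858.

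The libraries held 491621 to 2667099 UMIs over 1000 barcodes each, and no microglial barcode occurred in 2 of them. Metastasis 1 stood apart. It kept 990 barcodes, of which 237 were microglial by the rule, and its chemokine-high barcodes had a median of 5 UMIs of the 8 marker genes against 13 to 28 in the other libraries. In 131 of its 176 chemokine-high barcodes the markers made up under 0.3% of UMIs, against 1 to 17 barcodes per library elsewhere. The summed level of 10 monocyte and macrophage markers in chemokine-high barcodes was 2108 CPM (UMIs of a class scaled to a common total in each library) in metastasis 1, 1149 in Cx3cr1-null, 1089 in Cx3cr1-het, 404 in naive 2, 253 in naive 1 and 84.3 in metastasis 2. The microglial name therefore rests on few marker UMIs in metastasis 1, and results without it are also given for some of the genes and lists.

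Ccl3 and Ccl4 lie side by side on chromosome 11 (GRCm38). Ccl3 spans chr11:83647844-83649355 on the minus strand and Ccl4 spans chr11:83662584-83664683 on the plus strand, 13228 bases apart. In chemokine-high microglia Ccl3 stood at 4645 CPM in naive 1, 5684 in naive 2, 5941 in metastasis 1, 5322 in metastasis 2, 6819 in Cx3cr1-het and 4358 in Cx3cr1-null. In microglia below the limit it stood at 669 to 1072 CPM. Ccl4 was the larger part in every library, at 10455 CPM in naive 1, 7732 in naive 2, 9875 in metastasis 1, 8779 in metastasis 2, 8401 in Cx3cr1-het and 7419 in Cx3cr1-null, against 585 to 1663 CPM below the limit. Of the UMIs of both genes, Ccl3 held 30.8% in naive 1 and up to 44.8% in Cx3cr1-het. UMIs of both genes were found in 636 of the 659 barcodes. Across the chemokine-high barcodes of a library, which were selected on the sum of both genes, the rank correlation of the Ccl3 share with the Ccl4 share was 0.136 in Cx3cr1-null (40 barcodes), 0.190 in naive 1 (219), 0.237 in naive 2 (80), 0.413 in Cx3cr1-het (122), 0.557 in metastasis 2 (22) and 0.652 in metastasis 1 (176). Barcodes of 1 library share their source, and these values are a description.

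The limit cuts a continuous range of shares. Across libraries, 66 microglial barcodes had a chemokine share of 0.5% to under 0.6% and 77 had 0.4% to under 0.5%. The nearest barcodes inside the limit had 0.503%, 0.506% and 0.506%, and the nearest outside had 0.4996%, 0.498% and 0.498%. The median share of chemokine-high barcodes was 0.923% in Cx3cr1-null, 0.966% in naive 1, 1.10% in metastasis 2, 1.14% in naive 2, 1.25% in Cx3cr1-het and 1.33% in metastasis 1. Depth did not differ in 1 direction between the classes. The median UMIs per chemokine-high barcode were 1667 in naive 1, 3326 in naive 2, 2070 in metastasis 1, 3249 in metastasis 2, 4196 in Cx3cr1-het and 3192 in Cx3cr1-null, against 1201, 2977, 2390, 935, 4266 and 3475 below the limit. Metastasis 2 thus has the widest gap in depth, and its chemokine-high class has 22 barcodes.

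**Figure D1:**
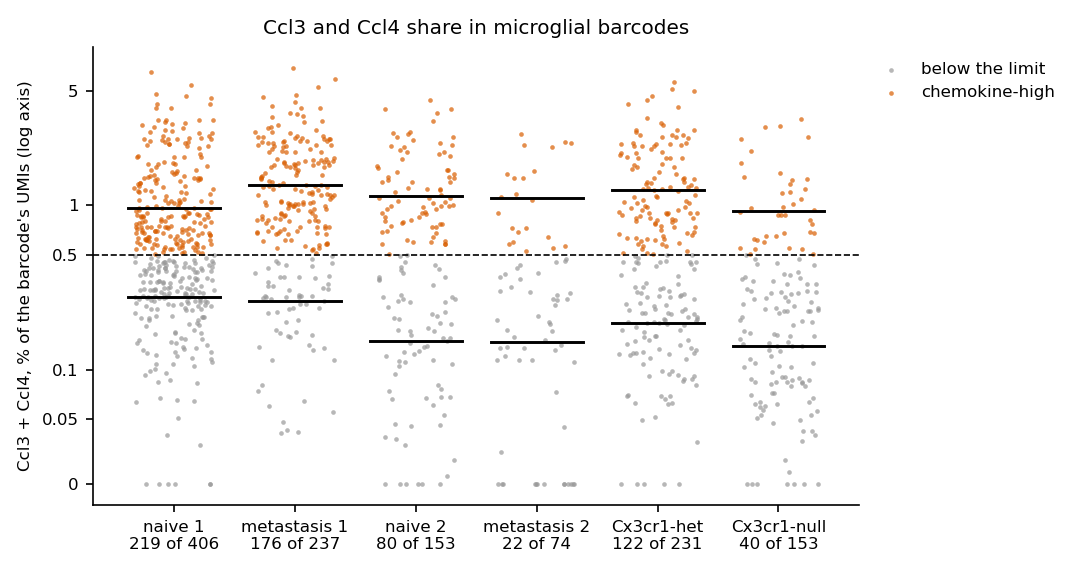
Share of Ccl3 and Ccl4 in the UMIs of each microglial barcode (log axis, barcodes without either gene drawn at 0), by library, with chemokine-high barcodes in orange and barcodes below the limit in grey. The dashed line is the 0.5% limit, black bars are class medians, and the numbers below give chemokine-high of all microglial barcodes; the points run through the limit without a gap.

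Chemokine-high barcodes were a large part of the microglia in every library. Their share was 53.9% in naive 1 (219 of 406, exact 95% interval 49.0 to 58.9), 52.3% in naive 2 (80 of 153, 44.1 to 60.4), 74.3% in metastasis 1 (176 of 237, 68.2 to 79.7) and 29.7% in metastasis 2 (22 of 74, 19.7 to 41.5). The naive libraries were close together and the metastasis libraries lay on either side of them. The mean was 52.0% ± 31.5 (SD, n = 2) with metastasis and 53.1% ± 1.17 (SD, n = 2) in naive brains, −1.12 points apart (exact permutation test, two-sided, p = 1, where 0.333 is the smallest this design allows). The sign depended on the limits. The difference was 5.47 points with a 1% chemokine limit, 11.3 with up to 25% mitochondrial UMIs and 9.05 with at least 5 marker UMIs. It was 4.36 points with markers of at least 0.3% of UMIs. The sign stayed with a 0.25% chemokine limit, where shares were 82.0% and 66.0% in naive 1 and 2. They were 87.8% and 52.7% in metastasis 1 and 2 there. Classes redrawn with barcodes thinned to 800 UMIs also kept the sign. Within replicate 1 the share was 20.3 points higher with metastasis and within replicate 2 it fell by 22.6 points. In Cx3cr1-het it was 52.8% (122 of 231, 46.2 to 59.4) and in Cx3cr1-null 26.1% (40 of 153, 19.4 to 33.9), with 1 library each and no test. Intervals cover counting error only. The limit on mitochondrial UMIs bears on this pair, since with a limit of 25% the shares were 43.5% of 618 and 13.03% of 737 barcodes.

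Ccl3 and Ccl4 were also found outside the microglial rule. In metastasis 1, 276 of 753 kept barcodes without 3 marker UMIs exceeded the 0.5% limit (36.7%). Of its 269 barcodes with at least 5 UMIs of monocyte and macrophage markers, 24.2% did, and these cell types express both genes. Of its 71 barcodes with at least 5 UMIs of carcinoma markers, cells that should lack both genes, 6 did (8.45%), with a median chemokine share of 0.0747% at a median of 7234 UMIs. In naive 2, 0 of 10 barcodes with endothelial and mural markers did, at a median share of 0.0722%.

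The question within libraries was which other genes go with a high Ccl3 and Ccl4 share in microglia. Of 5498 genes tested 10 rose and 4 fell (edgeR quasi-likelihood with the library as a block, adjusted p under 0.05, 0.255% of genes, 0.182% higher and 0.0728% lower). Among the 10 that rose were the growth factor gene Csf1, the cytokine gene Tnf and the chemokine gene Ccl12. The receptor genes Tlr2 and Ccrl2 and the stress and signalling genes Gadd45b, Gem and Sgk1 were others. The remaining genes were the glycolysis regulator gene Pfkfb3 and the poly(A) polymerase gene Fam46c (now Tent5c). All 10 were higher in chemokine-high microglia in 6 of 6 libraries, which held for 3.71% of all genes tested. Csf1 was among the genes by which the class had been characterised on these libraries, so its call is a description. Without Csf1, 13 genes passed, 9 of them higher. Ccl3, Ccl4 and the 8 marker genes were left out of the test. Ccl3 and Ccl4 were also left out of the totals behind the CPM of every other gene, so that their own UMIs lowered no other gene. Only the CPM of Ccl3 and of Ccl4 used totals that include both. The p-values measure the spread between these 6 libraries. With 1 library left out at a time the 14 genes kept their directions, but the number called was 3 without Cx3cr1-het, 3 without Cx3cr1-null, 4 without naive 2, 19 without metastasis 2, 30 without naive 1 and 52 without metastasis 1 (0.947% of the genes tested then), and all 14 were among those 52. Of the 14, 12 were among the 30, 9 among the 19, 4 among the 4 and 3 among each set of 3.

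Csf1 encodes the growth factor on whose receptor microglia depend for survival. It stood at 160 CPM in chemokine-high and 46.3 CPM in other microglia of naive 1, at 366 and 101 in naive 2, at 276 and 82.97 in metastasis 1, at 84.3 and 43.7 in metastasis 2, at 383 and 88.1 in Cx3cr1-het and at 215 and 55.3 in Cx3cr1-null. The chemokine-high value was higher in each pair, and in metastasis 2, where it rests on 7 and 4 UMIs, the pair was closest. The fitted log2 change was 1.81 (SE 0.19). Csf1 was among the 5 genes by which the class had been characterised on these libraries, so this value is a description. It lies at chr3:107741048-107760469 on the minus strand.

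Tnf, the gene of tumour necrosis factor, stood at 891 CPM in chemokine-high and 454 in other microglia of naive 1, at 1176 and 271 in naive 2, at 1142 and 172 in metastasis 1, at 422 and 295 in metastasis 2, at 1378 and 484 in Cx3cr1-het and at 1217 and 466.4 in Cx3cr1-null. It was higher in all 6 pairs, and the chemokine-high level of metastasis 2 fell below the other microglia of 3 libraries. In metastasis 2, 3 barcodes held 65.7% of the 35 chemokine-high Tnf UMIs, and without the 3 richest barcodes of each class the pair stood at 210 and 198 CPM. The log2 change of Tnf was 1.55 (SE 0.23, edgeR quasi-likelihood, adjusted p = 0.00753). Tnf was called with any 1 library left out. Ccl12, which encodes a monocyte-attracting ligand of CCR2, stood at 513 and 414 CPM in naive 1, 681 and 197 in naive 2, 1136 and 147 in metastasis 1, 470 and 131 in metastasis 2, 786 and 596 in Cx3cr1-het and 2304 and 619 in Cx3cr1-null. The differences of naive 1 and Cx3cr1-het were small beside the rest, and 3 barcodes held 66.3% of the chemokine-high UMIs in Cx3cr1-null and 74.4% in metastasis 2. The log2 change of Ccl12 was 1.45 (SE 0.28, edgeR quasi-likelihood, adjusted p = 0.0358).

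Tlr2, a receptor for bacterial lipoproteins, stood at 184 and 92.6 CPM in naive 1, 351 and 252 in naive 2, 479 and 95.7 in metastasis 1, 337 and 87.4 in metastasis 2, 303 and 145 in Cx3cr1-het and 442 and 252 in Cx3cr1-null, with chemokine-high first. In Cx3cr1-null 3 barcodes held 66.7% of the chemokine-high Tlr2 UMIs, and without the 3 richest of each class the pair stood at 205 and 188 CPM. The log2 change of Tlr2 was 1.15 (SE 0.22, edgeR quasi-likelihood, adjusted p = 0.0332), and with barcodes thinned to 800 UMIs it was 0.78 and did not pass (adjusted p = 0.153). Ccrl2, an atypical receptor that binds chemerin, stood at 602 and 398 CPM in naive 1, 1132 and 465 in naive 2, 862 and 278 in metastasis 1, 663 and 219 in metastasis 2, 916 and 565 in Cx3cr1-het and 827 and 548 in Cx3cr1-null. The lowest chemokine-high level of Ccrl2 was 602 CPM, in naive 1, and its highest level below the limit was 565 CPM, in Cx3cr1-het. Its log2 change was 1.00 (SE 0.19, edgeR quasi-likelihood, adjusted p = 0.0332).

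Gadd45b, a stress-induced gene that NF-kB also induces, stood at 236 and 92.6 CPM in naive 1, 456 and 246 in naive 2, 276 and 134 in metastasis 1, 265 and 153 in metastasis 2, 492 and 204 in Cx3cr1-het and 436 and 276 in Cx3cr1-null. Its log2 difference was smallest in Cx3cr1-null (0.65) and largest in naive 1. The fitted change of Gadd45b was 0.98 (SE 0.17, edgeR quasi-likelihood, adjusted p = 0.0165). Gem, a small GTP-binding protein gene, differed by 0.28 in metastasis 2 to 2.34 in metastasis 1, and Fam46c by 0.28 in naive 1 to 2.32 in metastasis 2. Pfkfb3, whose product raises the main allosteric activator of glycolysis, differed by 0.54 in metastasis 2 to 1.69 in metastasis 1. Sgk1, a kinase gene induced by serum and glucocorticoids, differed by 0.44 in naive 1 to 1.26 in naive 2. The fitted changes were 1.13 for Gem, 1.13 for Fam46c, 0.98 for Pfkfb3 and 0.84 for Sgk1 (edgeR quasi-likelihood, adjusted p = 0.0431, 0.0451, 0.0332 and 0.042). With barcodes thinned to 800 UMIs the change of Fam46c was 0.97, short of the threshold (edgeR quasi-likelihood, adjusted p = 0.0603).

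**Figure D2:**
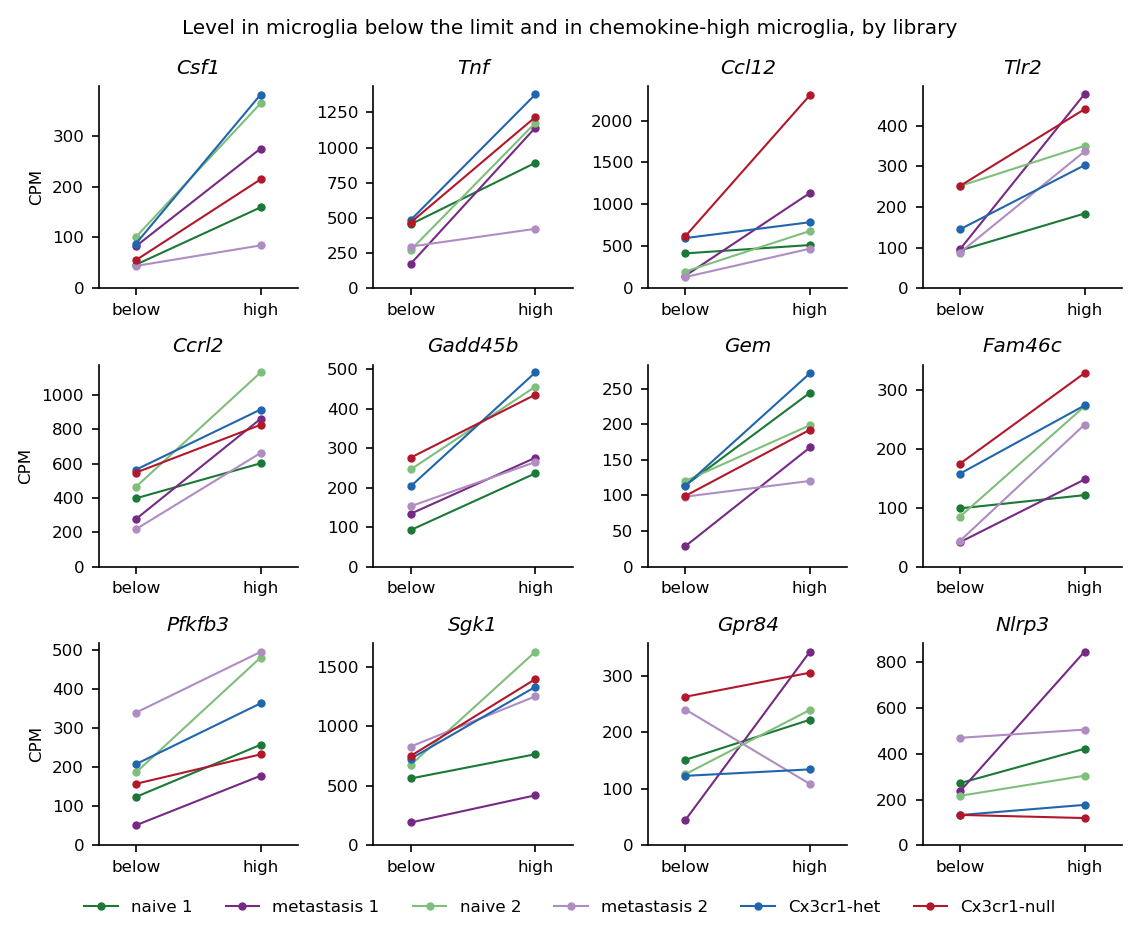
Level in CPM (linear axes from 0) of 12 genes in microglia below the limit and in chemokine-high microglia, 1 line per library and no error bars because each point is 1 sum over barcodes. All lines of the first 10 genes rise from left to right, while for Gpr84 metastasis 2 and for Nlrp3 Cx3cr1-null fall.

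The 2 remaining genes by which the class had been characterised on these libraries, Gpr84 and Nlrp3, did not pass. As for Csf1, their values below, with each adjusted p and call, are a description. Gpr84 encodes a receptor for medium-chain fatty acids. It stood at 222 CPM in chemokine-high and 151 in other microglia of naive 1, at 240 and 126 in naive 2, at 343 and 44.7 in metastasis 1, at 108 and 240 in metastasis 2, at 134 and 123 in Cx3cr1-het and at 306 and 263 in Cx3cr1-null. Metastasis 1 had the widest gap, metastasis 2 went the other way, and the classes overlapped across libraries. The fitted log2 change was 0.62 (SE 0.30, edgeR quasi-likelihood, adjusted p = 0.551), it was 0.28 without metastasis 1, and it was −0.06 when the markers had to make up at least 0.3% of a barcode's UMIs. Nlrp3, the sensor of the inflammasome that activates caspase-1, stood at 422 and 272 CPM in naive 1, 304 and 216 in naive 2, 848 and 236 in metastasis 1, 506 and 470 in metastasis 2, 177 and 132 in Cx3cr1-het and 119 and 133 in Cx3cr1-null. Its fitted change was 0.58 (SE 0.21, edgeR quasi-likelihood, adjusted p = 0.430), and 0.34 without metastasis 1. With every barcode thinned to 800 UMIs Nlrp3 passed at 0.89 (edgeR quasi-likelihood, adjusted p = 0.0150), among 1260 genes tested, of which 45 passed (3.57%). Of the 14 genes above, 9 could be tested there and 7 passed, and Csf1 was not among those tested.

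The sequences before the transcription starts of the genes that rose are shown because kappaB sites, the DNA elements that NF-kB binds, are known in the promoters of several of them. The RefSeq windows of GRCm38.p6 cover the 250 bases upstream of a start, 5′ to 3′ on the gene's strand, with matches to the kappaB consensus on either strand in capitals. Ccl3 (chr11:83649379-83649628, minus strand) and Tnf (chr17:35202008-35202257, minus strand) held no match to the consensus in this window. Csf1 (chr3:107760470-107760719, minus strand) and the first of 3 starts of Ccrl2 (chr9:111057519-111057768, minus strand) held 1 match each, and Tlr2 (chr3:83841609-83841858, minus strand) held 2 that overlap by all but 1 base.
Ccl3: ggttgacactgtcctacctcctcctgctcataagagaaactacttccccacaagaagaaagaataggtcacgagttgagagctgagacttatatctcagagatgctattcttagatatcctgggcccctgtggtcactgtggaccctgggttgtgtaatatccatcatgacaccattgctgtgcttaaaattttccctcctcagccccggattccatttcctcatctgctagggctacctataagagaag
Csf1: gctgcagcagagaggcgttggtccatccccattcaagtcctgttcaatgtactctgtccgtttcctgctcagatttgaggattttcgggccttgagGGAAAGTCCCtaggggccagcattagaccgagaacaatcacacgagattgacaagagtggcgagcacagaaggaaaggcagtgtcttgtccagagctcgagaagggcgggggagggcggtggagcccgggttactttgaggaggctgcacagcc
Tlr2: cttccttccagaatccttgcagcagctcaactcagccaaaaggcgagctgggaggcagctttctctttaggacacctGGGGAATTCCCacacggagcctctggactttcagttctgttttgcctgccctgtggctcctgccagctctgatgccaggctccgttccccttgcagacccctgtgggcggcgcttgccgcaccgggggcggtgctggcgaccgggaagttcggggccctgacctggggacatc
Ccrl2: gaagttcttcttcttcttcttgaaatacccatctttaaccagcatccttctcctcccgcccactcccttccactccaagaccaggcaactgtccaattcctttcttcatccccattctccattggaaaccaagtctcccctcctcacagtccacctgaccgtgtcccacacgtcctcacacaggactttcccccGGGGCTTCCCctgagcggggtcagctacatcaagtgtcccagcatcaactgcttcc
Tnf: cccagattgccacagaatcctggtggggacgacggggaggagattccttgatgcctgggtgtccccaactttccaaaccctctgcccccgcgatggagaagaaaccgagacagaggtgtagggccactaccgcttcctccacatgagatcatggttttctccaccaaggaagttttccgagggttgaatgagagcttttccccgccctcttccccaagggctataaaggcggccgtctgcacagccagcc
The matches began at −154 in Csf1, −173 and −172 in Tlr2 and −56 in Ccrl2, counted from the start. Of the 10 genes that rose, 9 had a window, and 3 of these held a match at any of their starts. A match was held by 7.25% of the 32851 RefSeq starts and by 10.8% of the 4233 tested genes with a window. The letters TGANTCA, an AP-1 element bound by Fos and Jun proteins, were found in 0 of the 9 genes and in 6.75% of starts. Both strands were searched, the motifs were chosen after the genes were known, and a match is a description of the sequence.

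Among the gene lists, those of NF-kB and of immediate-early genes had the most members higher at an unadjusted p under 0.05. Of 26 tested genes of NF-kB subunits, feedback and targets, 15 met this, against 4.49% of all genes tested, and 0 were lower. The median log2 change of the list was 0.51, against −0.02 over all genes, 11 of 26 were higher in 6 of 6 libraries, and 2 passed after adjustment (Ccrl2 and Gadd45b). Of 27 tested immediate-early genes, 15 were higher at an unadjusted p under 0.05, 0 were lower, 11 were higher in 6 of 6 libraries, the median was 0.55 and 0 passed. Fos stood at 6782 and 6691 CPM in chemokine-high and other microglia of naive 1, and at 3725 and 3732 in Cx3cr1-null, so these pairs hardly differed. It stood 5913 and 3832 in naive 2, at 3018 and 823 in metastasis 1, 7446 and 2219 in metastasis 2 and 4516 and 3902 in Cx3cr1-het. The fitted change of Fos was 0.70 (SE 0.26, edgeR quasi-likelihood, adjusted p = 0.430), and that of Jun was 0.55 (SE 0.25, adjusted p = 0.524).

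Metastasis 1 had the widest differences in these lists, with medians of 1.19 for NF-kB and 1.39 for immediate-early genes, against 0.26 to 0.55 and 0.02 to 0.73 in the other libraries. Without it, 14 of 26 NF-kB genes were higher at an unadjusted p under 0.05, against 3.75% of all genes, the median was 0.39 and 6 passed. The immediate-early list then had 12 of 26 such genes, a median of 0.38 and 3 that passed. With barcodes thinned to 800 UMIs, 15 NF-kB genes could be tested, all 15 had changes above 0, against 48.0% of all genes in that fit, and 7 passed, against 3.57%. Of 21 immediate-early genes 10 passed there.

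Outside the 14 genes, 7 passed without metastasis 1, with thinned barcodes and under the marker limit of 0.3% described below, and are named after their values were seen. None of the 7 passed with all 6 libraries. Cd83, an activation marker that stabilises surface MHC class II, stood at 2480 and 1939 CPM in naive 1, 1702 and 942 in naive 2, 1313 and 310 in metastasis 1, 1880 and 1181 in metastasis 2, 1830 and 985 in Cx3cr1-het and 1466 and 869 in Cx3cr1-null. It was higher in 6 of 6 libraries with a fitted change of 0.89 (SE 0.20, edgeR quasi-likelihood, adjusted p = 0.0794). Nfkbiz, an inducible IkB family gene, had 0.87 (adjusted p = 0.0815), Il1a, the gene of interleukin 1 alpha, had 1.14 (adjusted p = 0.0663) and Atf3, a stress-induced transcription factor gene, had 0.92 (adjusted p = 0.123), all by edgeR quasi-likelihood and all higher in 6 of 6 libraries. The others were Ppp1r15a, Id2 and Adamts1, which encode a phosphatase subunit of the stress response, an inhibitor of helix-loop-helix factors and a secreted protease.

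Of the other signalling lists, inflammatory cytokines and inflammasome genes had 5 of 12 members higher at an unadjusted p under 0.05. Over all genes tested this share was 4.49%, and 0.182% passed as higher. The list had a median of 0.56 and 2 that passed, Csf1 and Tnf. Pattern and damage receptors had 7 of 14, a median of 0.50 and 1 that passed, Tlr2. The first list holds Csf1 and Nlrp3 and the second Gpr84, genes by which the class had been characterised. Their part in these counts is a description. Without metastasis 1 the medians of the 2 lists were 0.25 and 0.29. Cd14, the lipopolysaccharide co-receptor, had a change of 0.51 and Il10ra, a chain of the interleukin 10 receptor, had 0.49 (edgeR quasi-likelihood, adjusted p = 0.489 and 0.486). The 10 tested chemokines other than Ccl3 and Ccl4 had a median of 0.48, with 3 higher at an unadjusted p under 0.05 and 1 that passed, Ccl12. Their library medians ran from −0.52 in Cx3cr1-null to 1.62 in metastasis 1, so the list had no common direction. Cxcl2, a neutrophil attractant, was higher in 3 of 6 libraries, with 1368 and 602 CPM in naive 1 and 430 and 939 CPM in naive 2.

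Among chemokine receptor genes, Cx3cr1 was higher in 3 libraries and lower in 3, with a change of 0.27 (SE 0.25, edgeR quasi-likelihood, adjusted p = 0.774). Of 5 tested receptor genes 1 passed, Ccrl2.

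Homeostatic genes of microglia that the rule did not use had fitted changes above 0 in 27 of 28 cases, against 47.4% of all genes, but 0 at an unadjusted p under 0.05 and a median of 0.27. This direction depended on the choice of barcodes. Without metastasis 1, 23 of 28 were above 0, against 49.4% of all genes, with a median of 0.10. With barcodes thinned to 800 UMIs, 17 of 27 were, against 48.0% of all genes, with a median of 0.03. Only 3 of 28 were above 0, against 49.8% of all genes in that fit, with a median of −0.11, when the markers had to reach 0.3% of UMIs. That limit also leaves metastasis 1 out of the fit. The list median was 1.59 in metastasis 1 and −0.22 to 0.69 elsewhere. In metastasis 1 the carcinoma markers were lower in chemokine-high microglia, at 489 CPM in chemokine-high and 1691 CPM in other microglia, summed over 9 genes.

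Complement and Fc receptor genes had a median of 0.36 over 9 genes and of −0.04 under the stricter marker limit, and lysosomal genes 0.19 and −0.06 over 14 genes. Without metastasis 1 the complement and Fc receptor median was 0.13 and the lysosomal median 0.06. Disease-associated genes had a median of 0.07, with Csf1 as the only 1 of 21 that passed. Type I interferon genes had a median of 0.00 over 21 genes (0 higher and 3 lower at an unadjusted p under 0.05, the latter against 4.73% of all genes). Their medians were −1.55 in naive 2 and 0.84 in metastasis 1. In the fit without metastasis 1 their median was −0.43, with 5 of 21 above 0. MHC class I genes had a median of −0.04 (8 genes), heat shock genes −0.15 (10 genes), cell cycle genes −0.14 (7 genes) and glycolysis and hypoxia genes −0.20 (9 genes). None of these lists had a member that rose other than Csf1.

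MHC class II genes, which present antigen to T cells, had opposite directions in different libraries. Cd74, the invariant chain, stood at 1265 CPM in chemokine-high and 466 in other microglia of naive 1, 515 and 393 in metastasis 1 and 1566 and 929 in metastasis 2. It stood at 1471 and 4453 in naive 2, 1211 and 4331 in Cx3cr1-het and 538 and 2204 in Cx3cr1-null. It was thus higher in 3 libraries and lower in 3. The fitted change was −0.56 (SE 0.40, edgeR quasi-likelihood, adjusted p = 0.694), and the list median was −0.58 over 6 genes. In the same 3 libraries with lower Cd74, markers of border-associated macrophages were 301, 166 and 96.2 CPM in chemokine-high and 542, 648 and 431 CPM in other microglia, summed over 9 genes. Monocyte and macrophage markers were 404, 1089 and 1149 CPM in chemokine-high and 1949, 1941 and 2456 CPM in other microglia of these libraries, summed over 10 genes. Dendritic cell markers, summed over 8 genes, were 190, 133 and 232 CPM against 430, 209 and 234 CPM. The part of these cells in the MHC class II values was not tested.

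**Figure D3:**
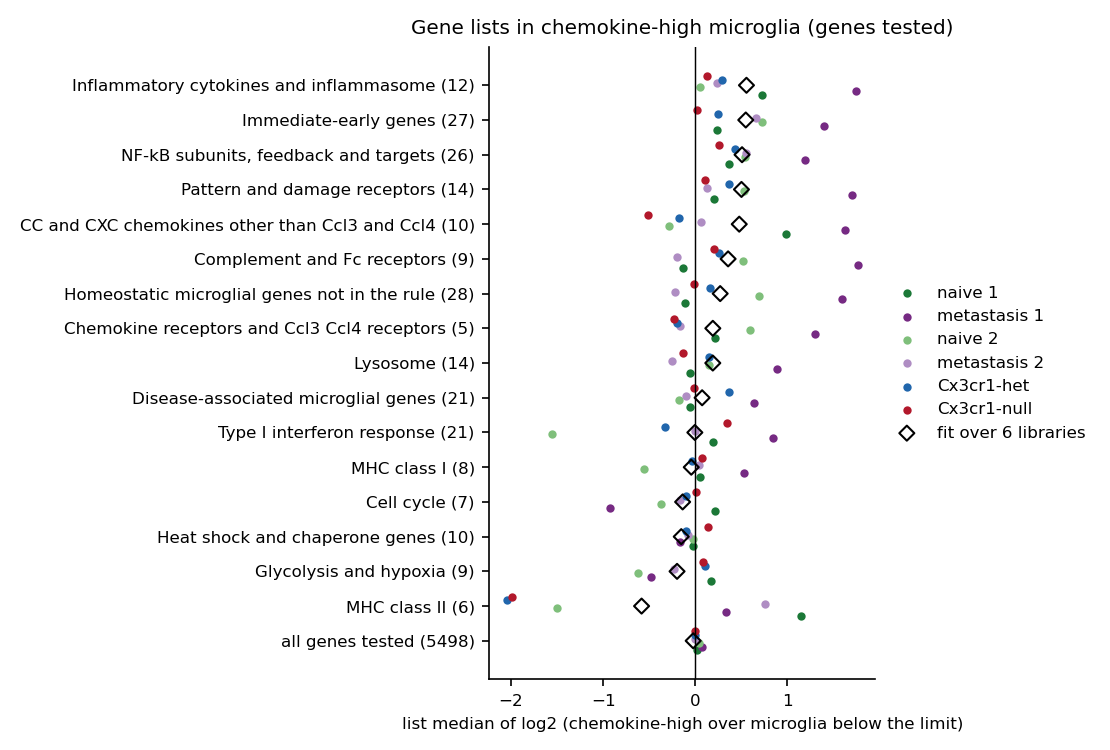
Median log2 difference between chemokine-high microglia and microglia below the limit for each gene list and for all genes, with the number of genes tested in parentheses. Coloured points are single libraries and open diamonds the fit over all 6, without error bars; metastasis 1 lies farthest to the right in the NF-kB (1.19) and immediate-early (1.39) lists, and MHC class II points lie on both sides of 0.

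The 4 genes that fell are given beside markers of other cells. Sptbn1, a spectrin gene of many non-myeloid cells, stood at 8.08 CPM in chemokine-high and 15.4 in other microglia of naive 1, 40.9 and 408 in naive 2, 49.3 and 67.0 in metastasis 1, 57.8 and 213 in Cx3cr1-het and 17.0 and 177 in Cx3cr1-null, with 0 and 2 UMIs in metastasis 2. Few barcodes carried the high levels, since 3 barcodes below the limit held 87.9% of the Sptbn1 UMIs in naive 2, 66.4% in Cx3cr1-het and 62.5% in Cx3cr1-null. Without the 3 richest barcodes of each class naive 2 stood at 32.0 and 62.5 CPM and Cx3cr1-het at 44.1 and 75.3 CPM. Sptbn1 was lower in 6 of 6 libraries, as were 2.11% of all genes tested (log2 change −2.08, SE 0.35, edgeR quasi-likelihood, adjusted p = 0.0145). Cald1, an actin-binding protein gene of smooth muscle and stromal cells, had −1.70 (adjusted p = 0.00815), Anxa1, an annexin gene, had −1.60 (adjusted p = 0.0093) and S100a10, which encodes the partner of annexin A2, had −1.32 (adjusted p = 0.0332), all by edgeR quasi-likelihood. Anxa1 and S100a10 were each higher in 1 library, and Cald1 had 0 UMIs in both classes of naive 1.

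In the libraries with the largest falls of Sptbn1, the 13 endothelial and mural markers also differed. Their sums were 254 CPM in chemokine-high and 2789 CPM in other microglia of naive 2, 439 and 2102 in Cx3cr1-het and 209 and 1309 in Cx3cr1-null. In naive 1, metastasis 1 and metastasis 2 they were 46.5 to 120 and 46.3 to 115 CPM. Microglia below the limit of naive 2 also held more astrocyte and oligodendrocyte RNA (3604 against 380 CPM) and more choroid plexus and ependymal RNA (2507 against 254 CPM). With markers of at least 0.3% of UMIs, a choice made after the data were seen that leaves 5 libraries because metastasis 1 then has 3 barcodes below the limit, 18 genes rose (0.349% of those tested) and 0 fell. All 10 genes named above as higher were among the 18, with Csf1 at 1.70, Tnf at 1.09, Gadd45b at 0.92 and Ccrl2 at 0.74. Sptbn1, Cald1 and S100a10 did not pass there and Anxa1 was not among the genes tested.

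**Figure D4:**
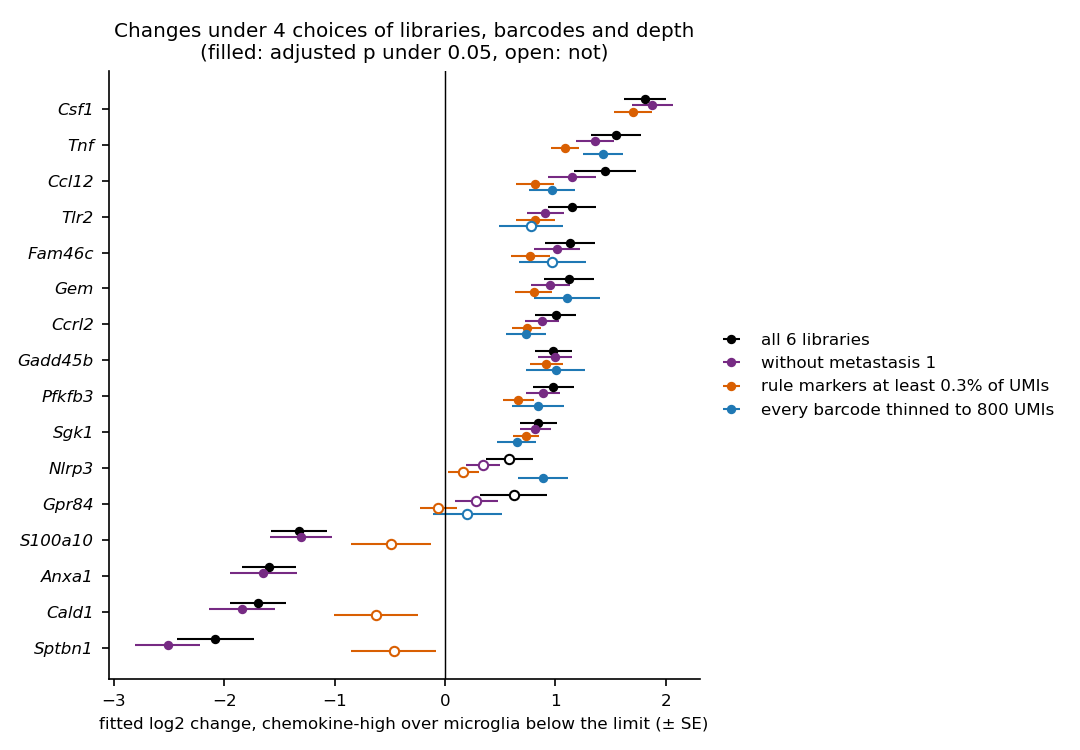
Fitted log2 change (± SE) of the 14 genes that passed and of Gpr84 and Nlrp3, with all 6 libraries, without metastasis 1, with a stricter marker limit and with thinned barcodes. Filled points passed and open points did not; the 10 higher genes stay to the right of 0 wherever they were tested, while the stricter limit brings Gpr84 to −0.06 and leaves no lower gene past the threshold.

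Whether metastasis changed chemokine-high microglia was asked over the naive and metastasis libraries of unmodified mice, 2 against 2. Of 6271 genes 0 passed (0%, edgeR quasi-likelihood; 204 genes, 3.25%, at an unadjusted p under 0.05; DESeq2 called 0). With the replicate number, and with it the sequencer, as a block 0 genes passed (130 at an unadjusted p under 0.05). In simulated counts the fit without the block called 0 of 90 genes changed 2-fold and 13 of 91 changed 4-fold. The absence of calls therefore does not show that metastasis changed nothing. The log2 ratio of Csf1, metastasis over naive, was 0.77 within replicate 1 but −2.05 within replicate 2, and that of Tnf was 0.36 and −1.47. Gpr84 had 0.61 and −1.11, while Nlrp3 was above 0 in both, at 1.00 and 0.72 (fitted change 0.77, SE 0.51, edgeR quasi-likelihood, adjusted p = 0.996). Scaling by library totals in place of TMM moved the median over all genes from −0.02 to 0.11.

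The replicates differed in the direction of whole lists. Of all 6271 genes tested, 3748 were higher with metastasis in replicate 1 (median log2 ratio 0.20) and 2878 in replicate 2 (median −0.10). Type I interferon genes had a median log2 ratio of 1.66 in replicate 1, with 21 of 21 members higher with metastasis, and −1.70 in replicate 2, with 2 of 21 higher. Ifitm3, which restricts virus entry, had 1.94 and −2.41. Homeostatic genes not in the rule had −1.39 in replicate 1, with 1 of 28 higher, and 0.08 in replicate 2, with 16 of 28 higher. Immediate-early genes had −0.76 and 0.30, and NF-kB genes 0.51 and 0.13. Both replicates were below 0 for complement and Fc receptor genes, at −0.77 and −0.59, as were MHC class II genes at −0.74 and −0.38, and 0 members of either list passed. Monocyte and macrophage markers had 2.92 and −2.48 (6 genes), the same pattern as the interferon list, and their part in it was not tested.

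Whether the chemokine-high effect itself differed with metastasis was tested as an interaction. Of 6767 genes 0 passed (0%, edgeR quasi-likelihood; 272 genes, 4.02%, at an unadjusted p under 0.05; DESeq2 called 1). Tlr2 had an interaction of 1.45 on the log2 scale (SE 0.51, unadjusted p = 0.0159, edgeR quasi-likelihood adjusted p = 0.974) and Ccl12 had 1.46 (SE 0.63, adjusted p = 0.974). Csf1 had −0.31 (SE 0.57) and Tnf 0.20 (SE 0.70). Of 22 interferon genes 9 had an unadjusted p under 0.05, with a list median of 1.63. In naive 2, 3 barcodes below the limit held 66.4% of the interferon list's UMIs.

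In the Cx3cr1 pair, with 1 library per genotype and no replicate check, the level of Cx3cr1 in chemokine-high microglia was 56.6 CPM in Cx3cr1-null (10 UMIs) and 1039 CPM in Cx3cr1-het (665 UMIs), a log2 ratio of −4.20 (exact 95% interval −5.27 to −3.31, counting error only). The counted 3′ end may lie outside the altered part of the gene, so this checks the label only as far as the allele removes the transcript. Of 3145 genes that reached 50 UMIs in the pair, the interval lay above 0 for 10.6% and below 0 for 10.6%, and the median was −0.04. Csf1 was lower in Cx3cr1-null, at 215 against 383 CPM (−0.83, −1.36 to −0.33), and Gpr84 was higher, at 306 against 134 CPM (1.19, 0.67 to 1.69). For Tnf, 1217 against 1378 CPM, and for Nlrp3, 119 against 177 CPM, the intervals included 0. These values also rested on few barcodes, since 3 of 40 in Cx3cr1-null held 52.6% of the Csf1, 64.8% of the Gpr84 and 59.5% of the Tnf UMIs. Without the 3 richest barcodes of each library the log2 ratio was −1.54 for Csf1, 0.55 for Gpr84 and −0.86 for Tnf.

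Interferon-induced genes had the higher level in Cx3cr1-null for 17 of 17 measured members, against 46.3% of all genes, with the interval above 0 for 14 and a median of 0.98. Isg15, a ubiquitin-like modifier, stood at 374 against 42.2 CPM, and Rsad2, an antiviral enzyme gene, at 243 against 26.6 CPM. Much of this lay in few barcodes. The summed level of the list had a log2 ratio of 1.20 with all barcodes and of 0.55 when the 3 richest barcodes of each library were left out. Cxcl10, a ligand of CXCR3, had the largest ratio, 3.99 (2259 against 142 CPM), and 3 of 40 barcodes held 97.5% of its UMIs. Without the 3 richest of each library its ratio was −0.48. Ccl2, the main ligand of CCR2, went from 3.41 to −0.95 in the same way, and Ccl12 from 1.55 to 0.84.

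Of the other genes with the largest ratios, Cacybp, which encodes a calcyclin-binding protein, was higher in Cx3cr1-null at 2.48 (1.70 to 3.29). Below 0 stood Pik3ip1, a negative regulator of PI3K, at −3.37 and Gadd45g at −3.19. The arrestin-domain gene Arrdc3 stood at −2.93 and the metallothionein gene Mt2 at −2.88. Each of these genes had 3 UMIs, 17.0 CPM, in Cx3cr1-null. Pik3ip1 stood at 175 CPM in Cx3cr1-het but at 6.06 to 29.2 CPM in the libraries from unmodified mice, on both sides of Cx3cr1-null. In Cx3cr1-het Gadd45g, Arrdc3 and Mt2 stood at 155, 130 and 125 CPM. In those unmodified libraries they stood at 57.2 to 135, 59.1 to 289 and 20.5 to 162 CPM. Of 23 immediate-early genes 14 had intervals below 0 and 2 above, with a median of −0.36. Of 9 heat shock genes 8 had the higher level in Cx3cr1-null, with a median of 0.57. Homeostatic genes were close to even, with 12 of 28 higher and a median of −0.07.

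**Figure D5:**
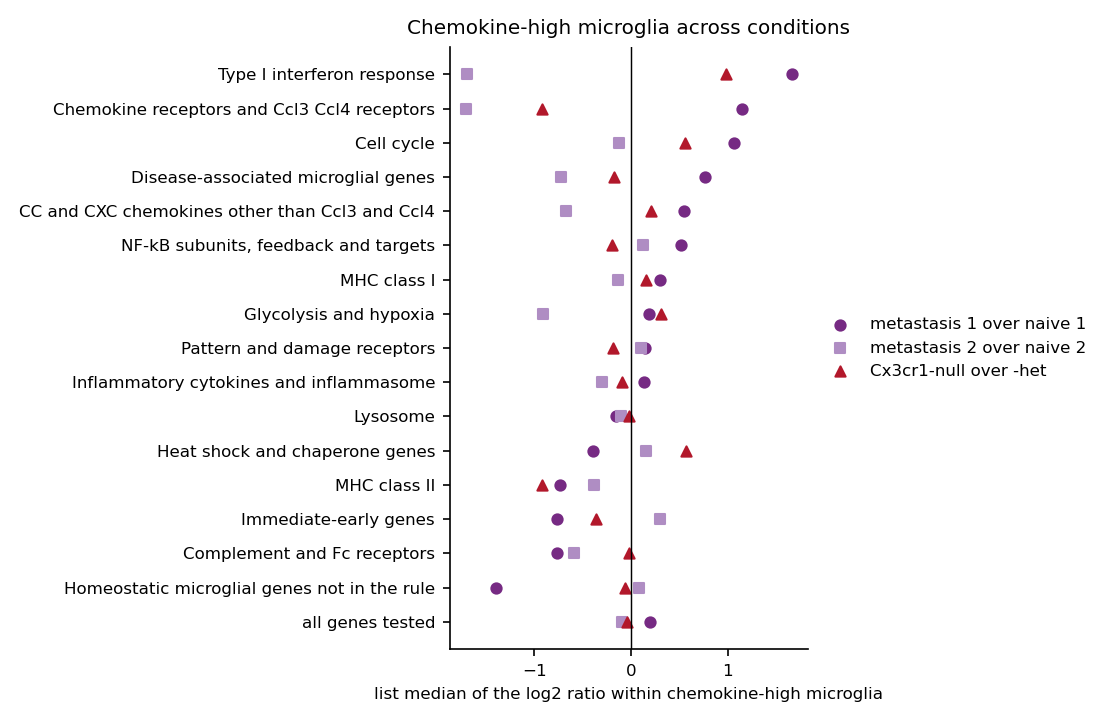
Median log2 ratio of each gene list within chemokine-high microglia, for metastasis over naive in replicate 1 (circles) and replicate 2 (squares) and for Cx3cr1-null over Cx3cr1-het (triangles), 1 library on each side of every ratio and no error bars. Type I interferon genes lie at 1.66, −1.70 and 0.98, and homeostatic genes at −1.39, 0.08 and −0.07.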

How the data were processed

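The authors deposited raw UMI counts, 1 table of genes by 1000 barcodes per library; every value is a whole number. Per the submitters' processing notes, STAR, Seurat and the mm10 build were used; for versions, settings, annotation and barcode choice, the sources used here give nothing. Total counts per library ran from 491621 to 2667099. Positions come from GENCODE on GRCm38, the assembly of mm10, and promoter windows from RefSeq.

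Barcodes were filtered and classed as given in the opening, without doublet removal. Removing the top 5% of Scrublet scores (scanpy 1.11.5) was an alternative. Counts were summed per library and class, with at least 10 barcodes in each, and tested by edgeR 4.0.16 quasi-likelihood (R 4.3.3, TMM, filterByExpr, Benjamini-Hochberg over all genes tested, threshold 0.05). DESeq2 1.42.0 was an alternative. The script was tested on simulated data. Log2 differences of single libraries used a prior count of 2 and have no error. Metastasis was compared with naive over libraries, without the replicate block. The Cx3cr1 pair, 1 library each, has exact 95% intervals of counting error and no test.

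Named genes were the 5 of the class (Ccl3, Ccl4, Gpr84, Nlrp3, Csf1), up to 12 per direction that passed, up to 4 per list that passed or its 2 most abundant, and the 5 largest ratios per direction in the Cx3cr1 pair. The members, the 16 gene lists and the 10 marker lists of other cells were chosen with earlier results of these data known. Of the 659 chemokine-high barcodes, 50 end in N and 9 of these are 1 deletion from another barcode of the same library, and they were kept. Results for some genes are not reported here.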

Additional observations from a re-analysis of the deposited data

Results flagged for a closer look

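The log2 difference of Csf1 between chemokine-high and other microglia was 0.87 in metastasis 2, below the 1.67 to 2.05 of the other 5 libraries by Dixon's test. That test marks about 1 in 20 groups by chance, and 16 genes were checked. The metastasis 2 value rests on 7 UMIs in 22 chemokine-high barcodes and 4 UMIs in 52 barcodes below the limit.

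In metastasis 1, 36.7% of the kept barcodes outside the microglial rule exceeded the chemokine limit (276 of 753), above the level in naive 1 (4 of 14, 28.6%) and naive 2 (6 of 28, 21.4%). These barcodes entered no comparison.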

How the results depend on the processing

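The 14 genes that passed between chemokine-high and other microglia kept their direction in every alternative that tested them, but the number of all genes called moved. It was 30 with a 1% chemokine limit, 24 with a mitochondrial limit of 25%, 35 with 5 marker UMIs, 34 with DESeq2, 45 of 1260 genes with barcodes thinned to 800 UMIs, 242 without a filter on low counts, 84 with the 4 NextSeq libraries, 5 with the 2 HiSeq libraries and 0 without the library block (119 at an unadjusted p under 0.05). It was 14 to 20 with the 0.25% limit, library totals, doublets removed, the chemokines kept in the totals or a marker share of 0.3%. Leaving out 1 library gave 3 to 52. Of the 14 genes, 13 were among those called with the 1% limit and with DESeq2, 12 with 5 marker UMIs, 9 with 25% mitochondrial UMIs, 7 with thinned barcodes and 0 with the HiSeq libraries. With 1 library left out, Tnf passed in all 6 fits, as did Csf1, whose value is a description. The largest adjusted p of the 14 genes in those fits was 0.276 (edgeR quasi-likelihood, Sgk1, without naive 2). For Gpr84 the marker share of 0.3% turned the change to −0.0609.

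Metastasis against naive gave 56 genes without a filter on low counts and 0 to 543 with 1 library left out: 2 without metastasis 1, 543 without metastasis 2, 15 without naive 2 and 0 without naive 1. The lone library of a group is then assumed to vary like the others. The interaction gave 1 gene with DESeq2, 14 with the marker share of 0.3%, 19 without a filter and 0 to 26 with 1 library left out (4 without metastasis 2, 26 without naive 1). The causes were not tested.

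Same-numbered libraries shared a sequencer, and the correlation of their deviations across genes was r = −0.11 (2 pairs). With 2 libraries per group this value cannot decide whether sequencer or replicate number had a shared effect. With the replicate block 0 genes passed (130 at an unadjusted p under 0.05), and with crossed numbers 0 (154). The share of chemokine-high barcodes, metastasis minus naive, turned from −1.12 to 5.47 points with the 1% limit, 11.3 with 25% mitochondrial UMIs, 9.05 with 5 marker UMIs, 4.36 with the marker share of 0.3%, 0.501 with doublets removed, 0.525 without barcodes under 800 UMIs (chosen after the data were seen) and 20.3 within replicate 1 of the pairing, and ran from −23.4 to 21.1 with 1 library left out. For the Cx3cr1 pair the median log2 ratio stayed between −0.09 and −0.03. Depth limits metastasis 2 most, with 22 chemokine-high barcodes.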
